A study of Mus musculus with 199 samples.

Results

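A small set of 40 kb windows of the mouse autosomes was detected in very few multiplex-GAM libraries without being absent from all of them. They were chosen by their calls in the libraries with 4 nuclear profiles (4NP). For each window of chromosomes 1 to 19 the number of 4NP libraries that called it positive was counted. Of 61816 autosomal windows in a table of 68162 windows, 1831 were called in 1, 2 or 3 of these libraries, which is 2.96%. They are named rarely called windows below. A further 2385 autosomal windows were called in no 4NP library and 57600 in 4 or more. The counts that chose the windows are given as a description and were not tested.

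Genome architecture mapping (GAM) infers which loci lie close together in the nucleus without ligation. Thin cryosections are cut through fixed cells, slices of nuclei (nuclear profiles) are isolated by laser microdissection, and the DNA of each slice is amplified and sequenced. Loci that are often found in the same slice are taken to be near each other, so a window must be detected at a usable rate before any of its contacts can be measured. Windows can be poorly detected in sequencing data where the assembly lacks sequence, where reads cannot be placed because the sequence occurs elsewhere in the genome, or where DNA amplifies unevenly, for example with base composition.

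All 4NP libraries came from 46C mouse embryonic stem cells (strain 129/Ola), a single line with a GFP reporter at Sox1, cut at 220 nm, with 4 cellular profiles placed in each cap and DNA amplified with the WGA4 kit. The 199 libraries of the table did not pass the quality control of the study, so every value below is conditional on that. The 4NP libraries fell into 28 title groups in 11 experiments. These were a full collection, profiles stained with crystal violet, propidium iodide (PI; with or without freezing), eosin in ethanol or water or SYBR Gold and their unstained partners, a titration of proteinase K with titled volumes of 1, 2, 3, 4 and 8 µl (mdc) and 1 µl (csc), early, late and post-incubation freezing, amplification for 20, 23 or 25 PCR cycles, reagent protocols a and c, and small and large kits. Another 11 libraries were water controls and 2 were controls with human DNA, and all others were 4NP libraries. For SYBR Gold, the protocols named other libraries as stained than the titles did, and titles were followed. The protocol of the full collection named a cresyl violet stain. In the experiment titled as a cresyl violet test, the stained libraries were titled crystal violet. The number of nuclei in a cap was not recorded, and the calls carry no read depth. A 4NP library had from 1 to 17643 called autosomal windows, with a median of 1549.5.

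The windows formed a single broad peak at 8 and 9 libraries, and the rarely called windows were its lower edge. There were 244 windows called in 1 library, 482 in 2 and 1105 in 3. Just outside the limit, 2103 windows were called in 4 libraries. In the 1105 windows at 3 libraries the median share of repeated 50-mers was 12% and the median GC was 39.6%, and in the 2103 windows at 4 libraries the medians were 9% and 39.4%. The windows never called formed a separate peak at 0.

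**Figure D1:**
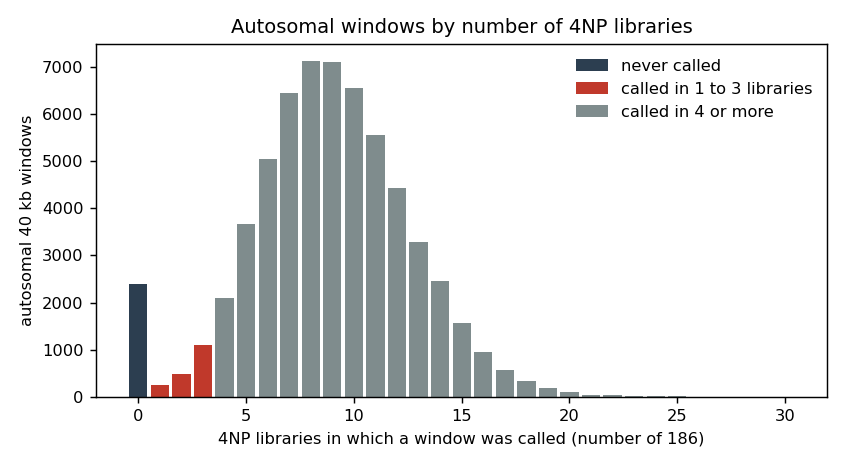
Autosomal 40 kb windows (vertical axis) by the number of 4NP libraries that called them (horizontal axis, up to 30 libraries). The 1831 rarely called windows (red, 1 to 3 libraries) form the lower edge of the main peak, and the 2385 windows never called (dark) stand apart at 0.

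Rarely called windows that lay next to each other were joined into runs, and the 10 longest were named. Positions are in the mm9 (NCBIM37) assembly. Stretches of 150 bases are shown from 2 of the 3 runs with the least and from the 3 with the most repeated sequence. In each, capitals mark the sampled 50-mer (50 consecutive bases, 1 sampled every 200 bases) that had the most exact copies in the assembly, counted on both strands. No repeat annotation was used. The first 2 stretches are from runs with little repeated sequence.
chromosome 4 run over Frem1, chr4:82718151-82718300, plus strand: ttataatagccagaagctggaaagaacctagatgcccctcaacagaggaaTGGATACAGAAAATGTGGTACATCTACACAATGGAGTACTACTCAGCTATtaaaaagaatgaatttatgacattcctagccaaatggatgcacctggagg
chromosome 6 run, chr6:44229751-44229900, plus strand: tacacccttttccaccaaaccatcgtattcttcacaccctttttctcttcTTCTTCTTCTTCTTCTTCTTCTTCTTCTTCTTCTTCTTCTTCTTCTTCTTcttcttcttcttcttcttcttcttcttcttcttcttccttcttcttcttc
The capital 50-mer of the run over Frem1 had 13807 copies in the assembly, and that of the chromosome 6 run, a simple repeat, 115831. Such 50-mers were few in these runs. Repeated 50-mers made up 6.36% and 11.9% of those sampled there. The next 3 stretches are from the runs with the most repeated sequence.
chromosome 12 run, chr12:19403151-19403300, plus strand: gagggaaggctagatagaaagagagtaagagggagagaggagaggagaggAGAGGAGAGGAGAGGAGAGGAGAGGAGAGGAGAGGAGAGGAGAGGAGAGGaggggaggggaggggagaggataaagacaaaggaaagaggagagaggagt
chromosome 5 run, proximal, chr5:11369951-11370100, plus strand: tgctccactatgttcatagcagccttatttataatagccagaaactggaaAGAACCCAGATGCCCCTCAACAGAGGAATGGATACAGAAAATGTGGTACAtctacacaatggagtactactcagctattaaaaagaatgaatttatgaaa
chromosome 5 run, middle, chr5:95168351-95168500, plus strand: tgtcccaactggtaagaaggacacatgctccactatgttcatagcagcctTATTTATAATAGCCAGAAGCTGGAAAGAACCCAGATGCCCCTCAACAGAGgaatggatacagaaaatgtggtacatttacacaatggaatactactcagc
The capital 50-mers of these stretches had 20618, 15073 and 12757 copies. The stretch of the run over Frem1 and that of the proximal chromosome 5 run shared 91 consecutive bases. The 2 stretches of chromosome 5 shared 57 consecutive bases. The same dispersed repeat was therefore present in runs with little and in runs with much repeated sequence.

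The most copied 50-mers were not typical of the repeated runs. In the 3 runs with the most repeated sequence, repeated 50-mers were 87.4%, 89.6% and 97.9% of those sampled, but the median repeated 50-mer had only 5, 7 and 7 copies. A further stretch of 150 bases from the first and the second of these runs shows in capitals the first sampled 50-mer with that median number of copies. This choice was made after the values were seen.
chromosome 12 run, chr12:19322151-19322300, plus strand: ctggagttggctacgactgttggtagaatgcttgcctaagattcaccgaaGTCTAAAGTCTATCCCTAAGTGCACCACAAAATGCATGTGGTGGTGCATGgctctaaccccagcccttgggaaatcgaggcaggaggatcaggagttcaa
chromosome 5 run, proximal, chr5:11361951-11362100, plus strand: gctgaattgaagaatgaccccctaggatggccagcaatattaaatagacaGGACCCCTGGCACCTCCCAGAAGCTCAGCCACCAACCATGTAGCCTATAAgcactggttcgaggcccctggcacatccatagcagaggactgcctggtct
Beside itself, the first of these 50-mers had 2 copies within 2 Mb and the second 6. Over all repeated 50-mers of the 3 runs with the most repeated sequence, 94.5%, 98.0% and 94.0% had another copy within 2 Mb on the same chromosome. In the 3 runs with the least repeated sequence the share was 62.9%, 60.5% and 54.0%, and there the median repeated 50-mer had 1374, 959 and 76 copies.

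The 1831 windows formed 1527 runs, of which 1300 were single windows, 173 held 2, 39 held 3, 10 held 4 and 3 held 5. The longest had 7 and the next 6. The 10 named runs held 48 windows and 96 calls from 46 libraries. No library made more than 6 of these calls, a number reached by replicate 3 of the unstained libraries of the cresyl violet test and replicate 5 of the libraries with 3 µl proteinase K.

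The longest run, at chr4:82440001-82720000, had 7 windows with 1, 1, 1, 3, 1, 3 and 3 libraries. It held 13 calls from 6 libraries in 6 title groups, and 5 of the 6 libraries called more than 1 of its windows. Its sequence was fully determined, with a mean GC of 41.6% and 6.36% repeated 50-mers. It covered the whole of Frem1 (chr4:82543825-82698243, minus strand), which encodes an extracellular matrix protein, and of Zdhhc21 (chr4:82444642-82505862, minus strand), which encodes a protein palmitoyltransferase, and it overlapped Cer1, which encodes a secreted antagonist of Nodal and BMP signalling. The water controls made 10 calls in these 7 windows, all from the 2 controls that called many windows, in which 18.5% and 16.7% of all rarely called windows were called.

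The other named runs differed widely in repeated sequence. The run of 5 windows at chr6:44200001-44400000 had 11.9% repeated 50-mers, a low mean GC of 36.7%, no annotated gene, and 12 calls from 10 libraries. The run of 5 windows at chr4:112520001-112720000, within Skint6, had 20.2% repeated 50-mers and 11 calls from 8 libraries. The Skint genes encode immunoglobulin-family proteins of the epithelium. The run of 4 windows at chr7:54800001-54960000 overlapped Mrgpra3, a receptor of itch-sensing neurons, with 32.8% repeated 50-mers. The run of 6 windows at chr12:18400001-18640000 had 56.2% repeated 50-mers and 6.20% undetermined bases, and it was the only named run with any undetermined base.

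The remaining 5 named runs had from 76.4% to 97.9% repeated 50-mers. They lay at chr12:19320001-19520000, chr5:11160001-11320000, chr5:11360001-11520000, chr5:95160001-95320000 and chr7:33880001-34040000. The protein-coding genes annotated there were predicted models with Gm symbols, and the run at chr5:95160001-95320000 had no annotated gene. That run lay between windows that were mostly never called, with a median of 0 libraries in its flanking windows. Water controls made 0 to 2 calls in each of these 5 runs.

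Undetermined bases, which dominated the windows never called, were uncommon in the rarely called windows. The mean share of undetermined bases was 2.05% in rarely called windows, 78.9% in windows never called and 0.0799% in windows called in 4 or more libraries. Of the 1831 windows, 58 (3.17%) had 5% or more undetermined bases, and 1773 had less. Of the windows called in 4 or more libraries, 124 (0.215%) had 5% or more. Repeated sequence also differed. The median share of repeated 50-mers was 16% (quartiles 4.5% and 35.5%) in rarely called windows, 5% (2.5% and 13%) in windows called in 4 or more libraries and 99.5% in the 552 windows never called that had determined sequence. At least 50% of the sampled 50-mers were repeated in 378 rarely called windows (20.6%) and in 762 windows called in 4 or more libraries (1.32%).

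The median share was 55% in windows called in 1 library, 17.5% in those called in 2 and 12% in those called in 3. The chance that a window was rarely called also differed along the scale of repeated sequence. Among windows with under 5% undetermined bases, 1.58% of those with 0 to 5% repeated 50-mers were rarely called, 6.09% of those with 25 to 50%, and 32.3% of those with 75 to 90% (Wilson 95% interval 27.9% to 36.9%). Above 90% the share was 22.6%, and 66.1% of those windows were never called. In all 19 autosomes the median share of repeated 50-mers was higher in rarely called windows than in the other windows of the chromosome. Such intervals cover counting error only, and neighbouring windows are not independent, so no test was made over windows.

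Windows with neither property were less common among the rarely called windows but not rare there. With under 5% undetermined bases and under 10% repeated 50-mers there were 694, which is 37.9% of the rarely called windows, against 39366 (68.3%) of the windows called in 4 or more libraries. They are called low-repeat windows below. By number of libraries, 39 of the 244 windows at 1 library, 163 of the 482 at 2 and 492 of the 1105 at 3 were of this kind.

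Rarely called windows had lower GC. The median was 39.6% (quartiles 37.8% and 42%) against 41.4% (38.8% and 44.7%) in the windows called in 4 or more libraries. Among low-repeat windows the medians were 39.3% and 42.7%, and the rarely called windows had the lower median in 18 of 19 autosomes, chromosome 8 being the exception. Of low-repeat windows with a GC of 36 to 38%, 3.97% were rarely called (interval 3.45% to 4.56%), and of those with 46 to 50%, 0.506% (0.364% to 0.702%). Between these steps the share fell in each. The outer steps did not continue this, with 3.73% (2.91% to 4.77%) at 30 to 36% GC and 0.545% (0.319% to 0.931%) at 50 to 65%.

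**Figure D2:**
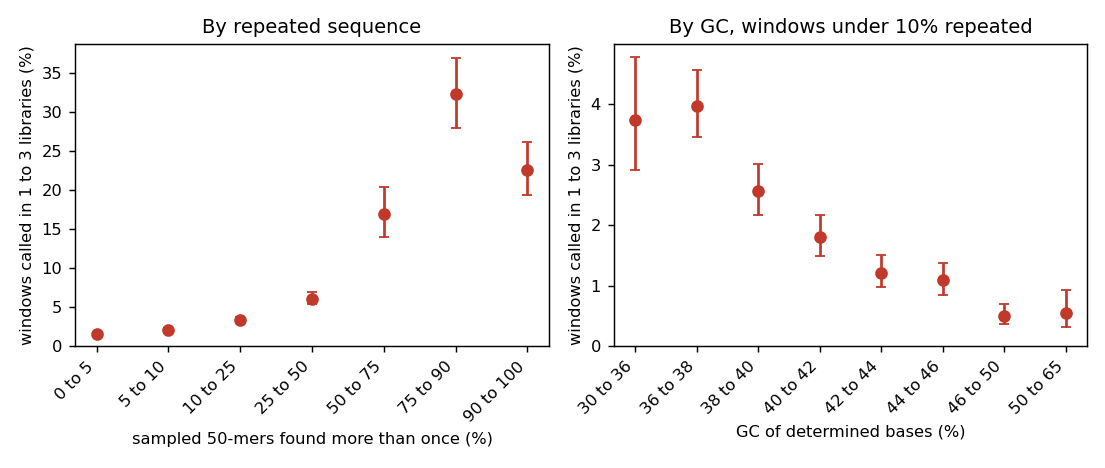
Percent of autosomal windows that were rarely called (vertical axes; bars, Wilson 95% intervals) by the share of sampled 50-mers found elsewhere in the genome (left, windows under 5% undetermined bases) and by GC in low-repeat windows (right). The share rises to 32.3% at 75 to 90% repeated 50-mers, and falls from 3.97% at 36 to 38% GC to 0.506% at 46 to 50%, with 3.73% and 0.545% in the steps outside these.

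Rarely called windows overlapped annotated genes (GENCODE M1) less often. A gene body overlapped 949 of the 1831 (51.8%), against 62.6% of windows called in 4 or more libraries. A protein-coding gene overlapped 42.9% and 55.9%. Among low-repeat windows the difference was larger, with 54.0% and 69.6% over any gene, and the share was smaller in rarely called windows in 17 of 19 autosomes. Of low-repeat windows with no gene 2.59% were rarely called, of those with 1 protein-coding gene 1.55%, and of those with 3 or more 0.663%. Among windows with under 5% undetermined bases and 50% or more repeated 50-mers the shares over a gene were 65.7% and 72.3%.

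Of 21418 autosomal protein-coding genes, 329 (1.54%) lay wholly in rarely called windows. Their median length was 2767 bases against 15535 for all. Only 14 of them spanned 2 or more windows. Predicted or clone-named models (Gm and Rik symbols) were 122 of the 329. The 25 named genes are the first of the other 207 by number of windows and length, and the mean share of repeated 50-mers over their windows was under 10% for 10 of them and 50% or more for 6.

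Frem1 spanned the most, with 5 windows. Behind it came Zdhhc21, Skint9, the cytochrome P450 gene Cyp2c37, the vomeronasal receptor genes Vmn2r37 and Vmn2r39, and the protease inhibitor gene Stfa1, with 2 windows each. Cyp2c37 (chr19:40066909-40086738) had 3 and 2 libraries in its windows and 24.2% repeated 50-mers. Vmn2r37 (chr7:8954257-8972360) had 3 and 3 libraries and 90.5% repeated 50-mers. Among genes in a single window with little repeated sequence were Trpv5, a calcium channel of the kidney, called in 1 library with 3.5% repeated 50-mers, and Slc45a2, a transporter of pigment cells, called in 3 libraries with 1.5%. Stag3, a cohesin subunit of meiosis, was called in 3 libraries with 7%, and Anxa1, which encodes annexin A1, in 3 with 4.5%. Kdelr2, a receptor that retains proteins in the endoplasmic reticulum, Muc15, Ogfrl1 and AI317395 were likewise called in 3 libraries each. At the other end, BC016201 was called in 1 library with 95% repeated 50-mers, Mrgpra2a in 1 with 81%, D5Ertd577e in 3 with 81% and Rnaset2a in 2 with 72%. In between, Ms4a13, Fam115c, Vmn2r104, Rfpl3s and C1rl were called in 3 libraries each, with 16.5% to 32% repeated 50-mers.

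Families were counted by symbol, over annotated genes of all kinds, by the window that holds the midpoint of the gene. The background was 996 of 34653 autosomal genes, 2.87%, in a rarely called window. For protein-coding genes alone it was 485 of 21418, 2.26%. Neighbouring family members share windows, so genes are not independent.

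Among receptor genes of chemical sensing, the shares of the taste and vomeronasal families were further above this background than that of the olfactory family. Bitter taste receptor genes (Tas2r) had 7 of 35 genes (20%) in 6 rarely called windows of chromosome 6, and 3 of the genes were in low-repeat windows. The windows of Tas2r108 and Tas2r137 and of Tas2r138 had 5.5% and 3% repeated 50-mers, and that of Tas2r123 had 75%. Vomeronasal receptor genes had 27 of 259 (10.4%; Vmn1r, in 18 windows) and 17 of 179 (9.50%; Vmn2r, in 16 windows), with median repeated shares of 76.8% and 84.8% in those windows and none of the genes in a low-repeat window. A further 46 Vmn1r genes and 13 Vmn2r genes lay in windows never called. Olfactory receptor genes (Olfr), the largest family, had 46 of 1243 (3.7%), in 23 windows on 9 chromosomes, with 24 of the genes in low-repeat windows. Over protein-coding genes alone it had 44 of 1106 (3.98%).

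Major urinary protein genes (Mup) had 4 of 21 (19%), each in a window called in 2 libraries with 80% to 96.5% repeated 50-mers. Defensin genes (Defa and Defb) had 10 of 71 (14.1%), all in 7 windows of chromosome 8 with 58% to 85%. Skint genes had 3 of 11, killer cell lectin-like receptor genes (Klr) 4 of 31 (12.9%), prolactin-family genes (Prl) 3 of 25 (12%), Mrgpr genes 2 of 20, amylase genes (Amy) 1 of 8, Pram genes 1 of 10, serpins 4 of 66 (6.06%), cytochrome P450 genes (Cyp) 6 of 103 (5.83%) and sulfotransferase genes (Sult) 1 of 18. Antigen receptor segments had 6 of 155 (3.87%; immunoglobulin) and 4 of 81 (4.94%; T cell receptor), and Nlrp genes had 1 of 19. The counts of the Amy, Pram, Sult and Nlrp lists each rest on a single gene. Predicted models with Gm symbols had 327 of 7866 (4.16%), and small RNA models 76 of 1385 (5.49%).

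A few families gave high counts from very few windows. Of 464 microRNA genes (Mir) 53 (11.4%) had their midpoint in a rarely called window, but 48 of the 53 lay in 1 window, chr2:10400001-10440000, inside Sfmbt2 (chr2:10292137-10516880, plus strand). Among them are Mir297b, Mir466d, Mir467b and Mir669c. This window was called in 2 libraries and had 56.5% repeated 50-mers, and the windows on either side were called in 5 and 4. Of 70 histone genes (Hist), 7 (10%) lay in 2 adjacent windows at chr13:21880001-21960000, called in 2 and 3 libraries, with 65% and 46% repeated 50-mers.

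Zinc finger genes (Zfp) had 5 of 370 (1.35%) and Rik models 36 of 2460 (1.46%), below the background. Histocompatibility genes (H2-) had 1 of 42 (2.38%), near it. No gene of the Krtap (53 genes), Pcdh (36), Ugt (21), Ceacam (15), Psg (14), Speer (12), Scgb and Abp (9) or Csprs and Sp1 (3) lists had its midpoint in a rarely called window. Most of these lists are so short that the background share comes to less than 1 gene, so a count of 0 does not set them apart. Of 18 pluripotency genes found on the autosomes, including Pou5f1, Nanog and Sox2, none did, and the same limit holds for them. Their windows were called in 7 (Sall4) to 20 (Sox2) libraries, with a median of 13, against a median of 10 over all genes.

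Rarely called windows also lay inside long genes, singly or next to each other. These genes were looked at after their values were seen, and a longer gene has more windows that can be rarely called. Over all autosomal windows 2.96% were rarely called, and over windows with 1 protein-coding gene 2.56%. The genes below were picked for high counts, so shares above these follow from the choice. Long genes with fewer such windows are not listed. Skint6 had 8 of its 13 windows rarely called, and 4 of the other 5 were never called. The other protein-coding genes with more than 4 such windows, beside Frem1 and without Gm and Rik symbols, lay on several chromosomes. On chromosome 6, Ctnna2, which encodes a catenin of neurons, had 6 of 29, Lrrtm4, a synaptic adhesion gene, 5 of 21 and Cntnap2 5 of 57. Dcc, which encodes a netrin receptor, had 6 of 28 on chromosome 18, Dlgap1 5 of 23 on chromosome 17, Sgcz 5 of 30 on chromosome 8 and Dlg2 5 of 49 on chromosome 7.

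Rarely called windows were on every autosome but unevenly. Chromosome 6 had the highest share, 208 of 3738 windows (5.56%). By share, chromosome 7 came next with 166 of 3814 (4.35%). Then came chromosome 13 with 120 of 3008 (3.99%) and chromosome 14 with 124 of 3130 (3.96%). Chromosomes 11 and 1 had the fewest for their length, 35 of 3047 (1.15%) and 58 of 4930 (1.18%). The median over the 19 autosomes was 2.85%. On chromosome 7 the median share of repeated 50-mers in rarely called windows was 39.2%, and on chromosome 12 it was 51.9%. On chromosome 6 it was 11.8%, and 91 of its 208 windows were low-repeat windows. Among low-repeat windows chromosome 6 had the highest share rarely called (3.85%), followed by chromosome 19 (3.06%) and chromosome 10 (2.75%), and chromosome 1 the lowest (0.814%). Chromosome 6 also had the lowest mean number of libraries among windows called in 4 or more, 8.58, and chromosome 11 the highest, 10.7.

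Along the chromosomes there was no steady trend. In steps of 10% of chromosome length from the centromeric end, counting windows with determined sequence, 3.92% of windows were rarely called in the first 10%, 4.11% at 50 to 60% and 1.91% at 80 to 90%. Among low-repeat windows the step at 50 to 60% was again the highest with 3.12%, and the other steps had from 1.22% to 2.14%.

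Rarely called windows lay near each other. Of the 1831, 531 (29%) had another directly beside them, against 4.69% of windows called in 4 or more libraries. Among low-repeat windows the shares were 21.8% and 3.61%. They also lay beside windows never called, 198 of them (10.8%) against 0.304%, and this fell to 0.720% among low-repeat windows. In 1244 bins of 2 Mb, 584 held none, and 17 held 10 or more, which together contained 219 of the rarely called windows (12%).

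The fullest bins differed in repeated sequence as the named runs did. The bin chr12:18000001-20000000 had 19 of 50 windows rarely called, with a mean of 62.1% repeated 50-mers. The bin chr5:94000001-96000000 had 18, with 26 windows never called and 91.6% repeated 50-mers. Next came chr5:10000001-12000000 with 17, and chr4:112000001-114000000 with 15, where the mean was 18.4%. The bin chr6:44000001-46000000 also had 15 but none never called and a mean of 10.5%, and no protein-coding gene had its midpoint in any of those 15 windows. The bin chr10:96000001-98000000 had 12, none never called, and a mean of 8.46%. Lum and Epyc, which encode small leucine-rich proteoglycans, were among its genes.

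The low counts extended into the neighbouring windows. Windows directly beside a rarely called window were called in a mean of 5.83 libraries, against 9.34 beside windows called in 4 or more. At 400 kb the means were 7.15 and 9.26, and at 4000 kb 8.77 and 9.16. For low-repeat windows the means were 6.34 and 9.60 directly beside, and 8.74 and 9.22 at 4000 kb. Each mean averages windows of the same libraries, so these are a description of the table.

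**Figure D3:**
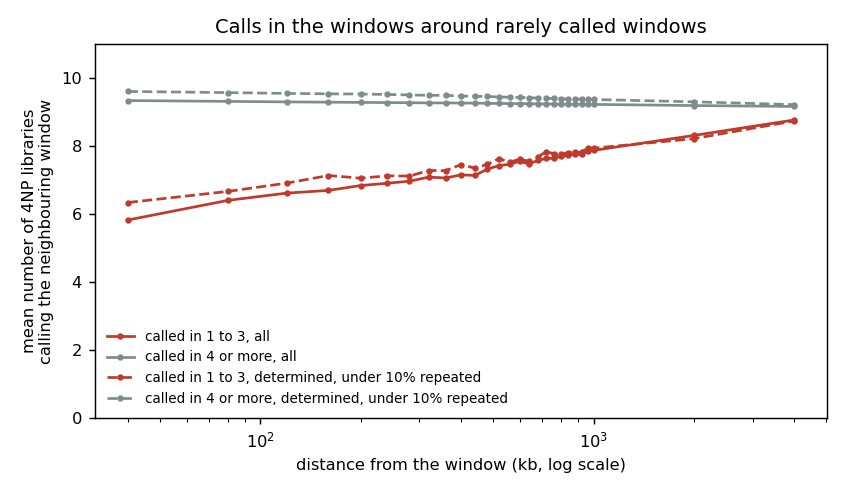
Mean number of 4NP libraries that called a window (vertical axis) at increasing distance (horizontal axis, kb on a log scale) from rarely called windows (red) and from windows called in 4 or more libraries (grey), for all windows (solid) and from low-repeat windows (dashed). Beside rarely called windows the mean is 5.83, rising to 8.77 at 4000 kb, while around the others it stays between 9.16 and 9.34 for all windows and between 9.22 and 9.60 for low-repeat windows.

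A call in a rarely called window often came with a call beside it in the same library. Of 4523 such calls, 2649 (58.6%) had a directly adjacent window called in the same library, against 63.1% of calls in windows called in 4 or more libraries. In low-repeat windows the shares were 63.4% and 63.4%. In windows with 50% or more repeated 50-mers and under 5% undetermined bases they were 38.3% and 57.6%. By number of libraries the share was 38.5% in windows called in 1, 55.4% in 2 and 61.0% in 3. In the 90 libraries with at least 10 such calls, the share for rarely called windows was the lower in 74.

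Calls in rarely called windows were spread over libraries and groups. The 4523 calls were 0.825% of all 548558 autosomal calls. They came from 145 libraries, and 41 libraries had none. The median library had 9 and the most had 200, replicate 7 of the PI stained group, which also had the most autosomal calls (17643). The 26 libraries richest in such calls held 50% of them, and for the other calls 31 libraries did.

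Among the 149 libraries with at least 100 autosomal calls, the share of calls in rarely called windows ran from 0 to 1.68% with a median of 0.661%. By title group, medians were taken over the 12 groups with at least 5 such libraries. They ran from 0.474% in crystal violet (16 libraries, 0 to 1.14%) to 1.05% in its unstained partner (5 libraries, 0.190% to 1.17%). Crystal violet libraries had 151 to 610 autosomal calls each and the unstained ones 1055 to 8980. Stain and number of calls cannot be told apart here. Libraries of these groups with a share of 0 had 108 to 267 calls, for which 0 allows 1.12% to 2.78%. The full collection had 0.513% (10 libraries, 0 to 1.05%). PI stained libraries had 0.731% (19 libraries, 0 to 1.25%) and PI stained and frozen libraries 0.616% (20 libraries, 0.388% to 1.09%). Libraries with 1 µl csc, 3 µl and 4 µl proteinase K had 0.871%, 0.951% and 0.891%, and those with 8 µl 0.724%. Eosin in ethanol gave 0.748% and eosin in water 0.668%, and SYBR Gold 0.631%. The ranges of all 12 groups overlapped. The order was not tested, because the same calls chose the windows.

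**Figure D4:**
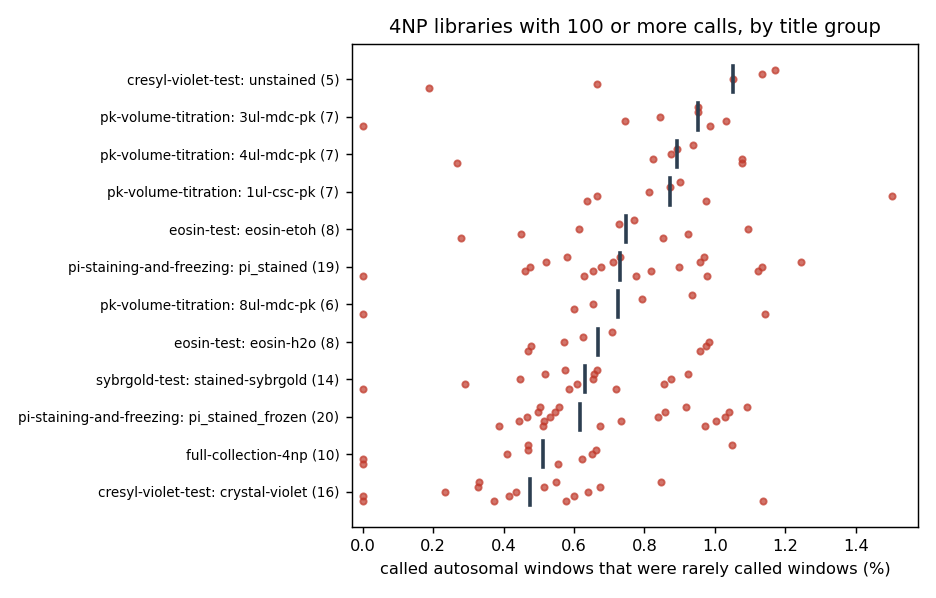
Percent of a library's called autosomal windows that were rarely called windows (horizontal axis), for 4NP libraries with 100 or more calls in the 12 title groups with at least 5 such libraries (rows; number of libraries in brackets; points, libraries; bars, medians). Medians run from 0.474% to 1.05% and the ranges of the groups overlap. The number of calls differs between groups, with 151 to 610 in each crystal violet library.

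The 244 windows called in 1 library had that call in 1 group by definition, and the other rarely called windows mostly had calls in more than 1 group. Of the 482 windows called in 2 libraries, 41 (8.51%) had both calls in 1 title group and 117 (24.3%) in 1 experiment. Of the 1105 called in 3, 6 (0.543%) had all calls in 1 group and 79 (7.15%) in 1 experiment. By experiment, the proteinase K titration gave 32.6% of the calls in rarely called windows and 29.7% of the other autosomal calls. The PI experiment gave 32.9% and 32.7%, the eosin test 12.2% and 12.8%, and the full collection 3.67% and 4.67%.

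The 11 water controls did not enter the choice of windows, so the same measure was compared in them. Of these, 6 came from the full collection. The share of rarely called windows called in a control ran from 0 to 18.5% with a median of 0.0546%, and the share of other autosomal windows from 0.0567% to 22.7% with a median of 0.103%. The share was lower for rarely called windows in 11 of 11 controls, with a mean difference of -0.804 percentage points (SD 1.62; 3.25% against 4.06%) and an adjusted p of 0.00146 (exact two-sided permutation test by sign flips, 3 tests adjusted together; unadjusted 0.000977, the smallest value 11 controls allow). With windows of under 5% undetermined bases on both sides the difference was -0.872 points, again in 11 of 11 (adjusted p 0.00146, exact permutation test). Among low-repeat windows it was -0.811 points and lower in 8 of 11 (adjusted p 0.0244, exact permutation test). This low-repeat difference did not pass the threshold by an exact sign test on the same controls (adjusted p 0.227). It also did not pass in the full collection controls alone (adjusted p 0.188, exact permutation test).

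Most of the size of the difference came from 2 controls with many calls, and the direction in the others rested on few calls. Replicate 4 of the full collection controls called 18.5% of rarely called windows and 22.7% of the others, and the unstained control of the SYBR Gold test 16.7% and 20.5%. The source of the DNA in these 2 controls was not tested. The mean difference was -0.459 points without the first and -0.498 without the second. In the other 9 controls, which had 35 to 304 autosomal calls each and at most 3 in rarely called windows, it was -0.0804 points, in 9 of 9 (adjusted p 0.00586, exact permutation test). In 5 of them the difference was smaller than the 0.0546% that 1 call is worth. Added up, these 9 controls had 12 of 839 calls in rarely called windows, 1.43% (Wilson 95% interval 0.820% to 2.48%), against the 2.96% of windows that were rarely called. For low-repeat windows the difference in these 9 controls was -0.117 points, lower in 6 of 9, and did not pass the threshold (adjusted p 0.0977, exact permutation test).

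In the 2 controls with many calls the rates were closer than in the 4NP libraries. Rarely called windows were called at 26.2% of the rate of windows called in 4 or more libraries in the 4NP libraries, a value fixed by the choice of windows. In the full collection control the rate was 78.1%, and in the SYBR Gold control 78.0%. For low-repeat windows it was 27.1% in the 4NP libraries and 80.0% and 86.1% in the controls. In the full collection control 16.8% of windows called in 1 4NP library were called, 17.8% of those called in 2 and 19.1% of those called in 3, against 20.8% of those called in 4 and 23.1% of those called in 10. Windows never called in 4NP libraries stood apart, with 0.629%. In the SYBR Gold control the values were 12.7%, 16.0%, 17.8%, 19.2%, 21.8% and 0.587%.

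**Figure D5:**
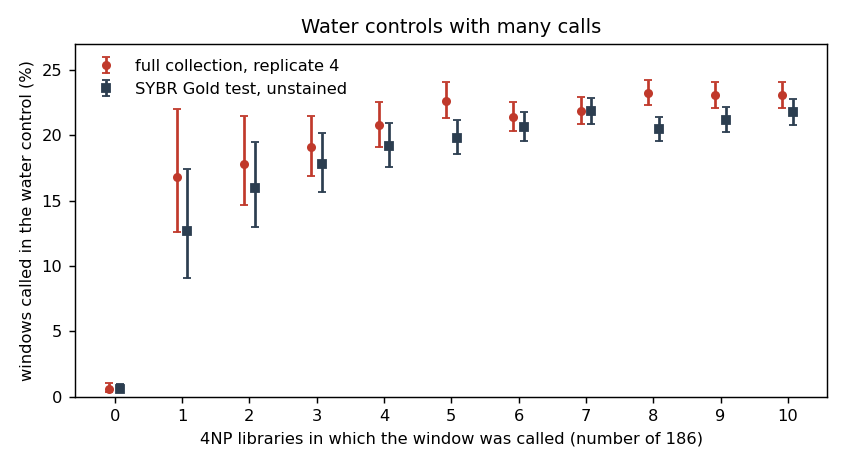
Percent of autosomal windows called in each of the 2 water controls with many calls (vertical axis; bars, Wilson 95% intervals) by the number of 4NP libraries that called the window (horizontal axis, 0 to 10). Windows called in 1 to 3 libraries lie between 12.7% and 19.1%, below or near those called in more, and windows never called lie at 0.587% and 0.629%.

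Over all 11 water controls, 598 of the 1831 rarely called windows (32.7%) were called at least once, against 38.6% of all autosomal windows. In the 9 controls with few calls, 12 were called (0.655%), each in 1 control, against 1.29% of all autosomal windows. The human DNA controls had 26 and 35 autosomal calls. The first had 1 of them in a rarely called window and the second had 0, which allows up to 0.164% of the rarely called windows.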

How the data were processed

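The deposited values were the authors' calls for 40 kb windows (rows) in each library (columns), coded 1 where a window was positive and 0 otherwise. Per the study's methods, the authors aligned reads to mm9 with Bowtie2 (version 2.1 in the submitters' processing notes), removed duplicates with Samtools and used GAMtools with a fixed threshold of 4 reads per window, so a window with 1 to 3 reads counts as 0. How reads that fit several places were treated is not given in the sources used here, which bears on calls in repeated sequence. Read depth is not in the calls and was not used here.

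Groups followed sample titles, and replicate numbers, given in accession order, only name libraries. The windows, gene lists and tests were chosen with earlier results of these data known. Calls in 4NP libraries chose the windows, so only the water controls were tested.

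The last window of all chromosomes compared ended at the length of the NCBIM37 sequence. Undetermined bases, GC and exact copies of 50-mers sampled every 200 bases were computed from NCBIM37, and genes were from GENCODE M1. The 50-mer counts and the sign-flip test were checked on simulated data. The 10 named runs were the longest (ties by fewer undetermined bases, then position). Named genes were the first 25 protein-coding genes wholly in rarely called windows, by windows and then length, without Gm and Rik symbols, and families were taken by symbol prefix. In each water control the share of rarely called windows called minus that of the others was taken, and the mean over 11 controls was tested by exact two-sided sign flips, with 3 tests adjusted by Benjamini-Hochberg and a threshold of 0.05. Controls are separate libraries, so p-values measure only the spread between them. The test takes differences to be symmetric about 0, which need not hold in controls with few calls. Alternatives changed the count limits, the libraries and controls used, the k-mer length (36, 100), the neighbour distance and the gene overlap. Python 3.11.15, numpy 2.4.6, scipy 1.17.1, pandas 2.3.3 and numba 0.67.0 were used. No column was left out. A few items named by these rules are not reported here.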

Additional observations from a re-analysis of the deposited data

Results flagged for a closer look

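In 8 title groups of 4 to 10 libraries, 1 of them of water controls, the share of a library's called autosomal windows that were rarely called windows was checked for a library far from the others of its group. This describes the libraries and is no test, because the calls of the 4NP libraries chose the windows. Chance alone gives such a library in about 1 in 20 groups where all libraries are equally precise. A share from few calls is less precise than one from many. All 3 libraries found were in the proteinase K titration. Replicate 4 of the libraries with 1 µl proteinase K (csc) had 1.5%, or 74 of 4925 calls, above the others of its group, whose median was 0.842%. Replicate 1 of the libraries with 3 µl (mdc) had 0, below a median of 0.952%, but it had only 230 autosomal calls, for which 0 allows a share of up to 1.30%, and the others of its group had from 3655 to 11336. Replicate 1 of the libraries with 4 µl (mdc) had 0.268%, or 5 of 1865 calls, below a median of 0.914%. It too had the fewest calls of its group, in which the others had from 4361 to 10751.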

How the results depend on the processing

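Of 63 alternative values, 53 kept their direction and their side of the threshold, moved by less than the counting error or, for the number of rarely called windows, stayed within 1.5 times, 7 moved and 3 no longer passed the threshold. With limits of 1 to 2 and 1 to 5 libraries there were 726 and 7604 rarely called windows in place of 1831. With only the 115 4NP libraries of at least 1% coverage there were 1951, which held 99.8% of the 1831, and without the full collection 2174. With 36-mers and 100-mers, 22.8% and 16.3% of rarely called windows had 50% or more repeated sequence, in place of 20.6%. Within 2 windows, 40.9% had another rarely called window and 72.8% of calls had a neighbour called in the same library, in place of 29% and 58.6%. An exon overlapped 44%, in place of 51.8% for gene bodies. In water controls, the low-repeat difference of -0.811 points (adjusted p 0.0244, exact permutation test) was -0.117 without the 2 controls with many calls (adjusted p 0.0977), -0.938 in the full collection controls alone (adjusted p 0.188), and by the sign test 8 of 11 controls were lower (adjusted p 0.227, exact). The cause was not tested, but fewer controls enter the first 2 of these, and with 6 controls the smallest exact p is 0.0313. Leaving out each control in turn gave from -0.884 to -0.459 points for all windows, from -0.959 to -0.502 for windows under 5% undetermined bases, and from -0.900 to -0.403 for low-repeat windows, with adjusted p at most 0.0488 (exact permutation tests). Between groups of libraries, no paired analysis was possible because replicate numbers only name libraries. The tests in water controls compared both kinds of window within each control. Calls of 0 or 1 give no depth, and 9 of 11 controls had at most 304 autosomal calls.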
